A study of Rattus norvegicus with 14 samples.

Results

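The left ventricle of control rats, the main pumping chamber of the heart, was described from the control arrays of a study of diabetic heart disease. The arrays were all those labelled as controls, 7 of 14 in the series, and on them 31042 of 31099 probe sets were described, leaving out the 57 control probe sets of the manufacturer. The controls were male Wistar rats that received saline into the tail vein under halothane and were killed 16 weeks later. Each heart was flushed with buffered saline before the left ventricle was cut away, and each array carries the RNA of 1 animal, per the labels. The other 7 animals, given streptozotocin at 60 mg/kg, were not used here. Either of a pair of kits was used to extract RNA, with no record in the labels of the kit for each animal. The labels give no hour of dissection.

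Heart muscle cells beat without rest, and most of their volume is taken up by contractile filaments and by mitochondria that burn mainly fatty acids. Many of their proteins belong to families in which each muscle type uses its own member, so the isoforms present are a signature of the ventricle. The tissue also holds fibroblasts, endothelial cells, smooth muscle, pericytes, macrophages and nerve endings. In RNA of whole tissue, fewer cells of a type and less RNA per cell cannot be told apart.

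Signal is given as log2 of the probe set intensity after each array was scaled to a trimmed mean of 500 and 50 was added, and errors are SDs over the 7 animals. The added 50 sets a floor of 5.64 on this scale, and a scaled mean under 100 (7.23 on this scale) is called low signal. A gene is represented by its brightest probe set. Signals of different probe sets depend on their probes as well as on the RNA, so the order of genes is a description and no ratio between genes is given.

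The arrays differed in deposited brightness, with medians between 19.8 and 82.4, and in 2 respects they were not alike. Control replicates 5 and 6 stood apart from the others and from each other: the 11 pairs of arrays with either of them correlated by 0.908 to 0.939, and the 10 pairs without them by 0.956 to 0.981. Control replicates 1 and 2 had the highest 3-prime over 5-prime signal of beta-actin, 1.46 and 1.71 on the log2 scale against 0.67 to 0.99 on the other arrays, a ratio used as a sign of RNA or labelling quality. Together with the poly-A spike-in controls this ratio was used to sort the arrays into 3 inferred batches. Control replicates 1 and 2 formed batch A, 4 and 7 batch B, and 3, 5 and 6 batch C. The sample titles name no batch, and the rule of splitting at the largest gaps gives 3 groups whatever the data. No probe set differed between batches in limma's F test after adjustment over all 31042 (0 percent), while 3838 (12.4%) had an unadjusted p under 0.05. With an offset of 200 in place of 50 the test called 56, and among probe sets with a scaled mean of at least 100 it called 42.

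The brightest genes of the control ventricle were those of contraction, calcium cycling and mitochondrial energy supply. The brightest 1% of probe sets, 310 of them starting at 13.55, carried 25.3% ± 1.72 (SD, n = 7) of all signal, and the brightest 10% carried 69.1% ± 1.23. At the top stood COX2 at 15.28 ± 0.28 and COX1 at 15.23 ± 0.32, the mitochondrially encoded subunits of cytochrome c oxidase. Next came Atp2a2 at 15.17 ± 0.29, the calcium pump of the sarcoplasmic reticulum known as SERCA2.

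The remaining 22 of the 25 brightest genes lay between 14.79 and 15.09. They included the mitochondrial enzyme Idh2 (15.09 ± 0.22), the heart form of lactate dehydrogenase Ldhb (15.09 ± 0.25) and the small heat shock protein Cryab (15.05 ± 0.27). The oxygen store Mb stood at 14.99 ± 0.21, the phosphate carrier Slc25a3 at 14.96 ± 0.27 and the fatty acid-binding protein Fabp3 at 14.88 ± 0.25. The ranges of these genes over the 7 animals overlapped, and differences between neighbours in this order were not tested. Of 33 measured genes of oxidative phosphorylation, 28 lay in the brightest 1%, as did 7 of 12 cytosolic ribosomal proteins and 8 of 13 genes known to mark cardiac stress. For reference, 230 of all 14217 genes lay there.

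All 11 measured cardiomyocyte markers lay in the brightest 1%, so the tissue carried the signature its label names. The ventricular form of the regulatory myosin light chain, Myl2, stood at 14.99 ± 0.31. Isoform families were described by their leading member, the one with the highest mean. Of 42 families listed, 41 had more than 1 measured member, and in 36 of these the leading member was above the next on all 7 arrays. As the leader was picked on these same arrays and no share for other sets of genes was computed, this count is a description. The leading member lay in the brightest 1% in 26 families, and in 18 of them it was the sole member there. Of 151 measured members 42 had low signal. Of all 14217 genes 10133 were above low signal, a share close to that of the family members.

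**Figure D1:**
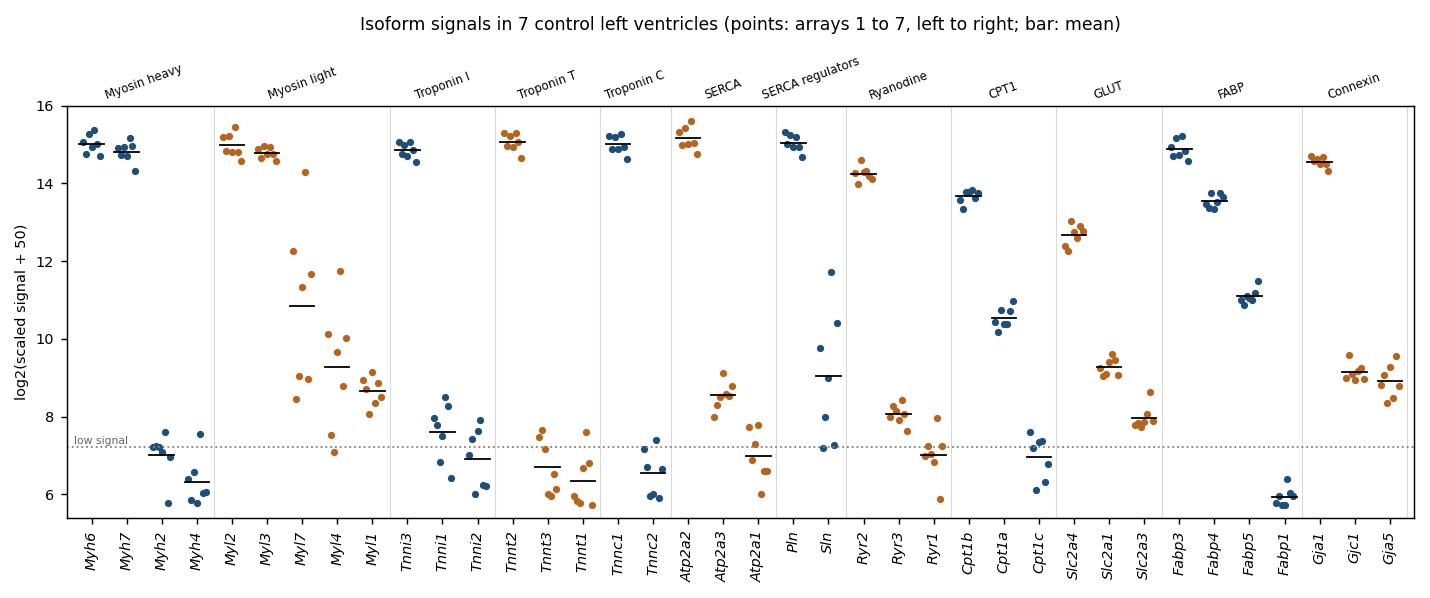
Signal of members of 12 protein families in the control left ventricle. The vertical axis is log2(scaled signal + 50), each point is 1 of the 7 arrays and each bar the mean; the cardiac members such as Tnni3, Tnnt2, Atp2a2 and Cpt1b lie far above the low-signal line, and Myl7, Myl4 and Sln are spread most widely.

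Among the thick filament motors, Myh6, the fast alpha heavy chain that dominates the adult rat ventricle, stood at 15.06, 14.77, 15.28, 14.95, 15.36, 15.00 and 14.70 in control replicates 1 to 7. Myh7, the slow beta heavy chain, stood at 14.90, 14.74, 14.95, 14.71, 15.17, 14.95 and 14.32. The signal of Myh6 was above that of Myh7 on every array, by a narrow margin, and the ranges overlapped. The skeletal chains Myh2 (7.02 ± 0.58) and Myh4 (6.32 ± 0.61) had low signal. The 5 probe sets listed for Myh1, a skeletal chain, had means from 11.05 to 13.74. The myosin heavy chains are close in sequence, so the gene behind the Myh1 signal is uncertain.

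Each of these cardiac chains had a second, dimmer probe set that ordered the animals in another way. The dimmer Myh6 probe set read 12.88 and 12.65 in control replicates 1 and 2 and 13.90 to 14.34 on the other 5 arrays. The dimmer Myh7 probe set read 11.75 and 11.65 in the same animals and 12.50 to 13.42 elsewhere. The brighter probe sets of both genes show no such gap. Control replicates 1 and 2 are those with the high beta-actin ratio given above, and its part in this difference was not tested.

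In the thin filament, the cardiac troponins were far above their skeletal counterparts. The troponins of the heart stood at 15.06 ± 0.23 (Tnnt2, the tropomyosin-binding subunit), 15.01 ± 0.23 (Tnnc1, the calcium sensor, shared with slow muscle) and 14.86 ± 0.20 (Tnni3, the inhibitory subunit). Their fast skeletal counterparts Tnnt3 (6.70 ± 0.72), Tnnc2 (6.55 ± 0.60) and Tnni2 had low signal. Tnni1, the slow skeletal form that the heart uses before birth, ranged from 6.42 to 8.50. Tpm1 led the tropomyosins at 15.05 ± 0.22, with Tpm4 next at 12.03 ± 0.13. With the mean of all probe sets Tpm4 was the leader.

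Actin alpha 1, the skeletal actin that the rat heart also makes, stood at 14.23 ± 0.26. The cardiac actin is not listed with 1 symbol in the annotation used. A probe set listed with several muscle actins stood at 15.11 ± 0.26. The sarcomere's cross-linker Actn2 (14.32 ± 0.25) and the cardiac myosin-binding protein Mybpc3 (14.04 ± 0.24) led their families on all 7 arrays.

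Calcium handling followed the cardiac pattern too. Ryr2, the release channel of the sarcoplasmic reticulum, stood at 14.25 ± 0.19, while Ryr3 stood at 8.07 ± 0.26 and Ryr1 had low signal. The calcium store Casq2 stood at 14.08 ± 0.18, and its skeletal counterpart Casq1 at 10.74 ± 0.35. Pln, the brake on SERCA2, was at 15.05 ± 0.23, and the sodium-calcium exchanger Slc8a1 at 12.83 ± 0.12. The L-type channel subunit Cacna1c stood at 11.25 ± 0.14, a signal that 6.54% of probe sets exceeded. Gja1, the gap junction protein of working myocardium, stood at 14.56 ± 0.13, and Gja5, the connexin of atrium and conduction fibres, at 8.91 ± 0.42.

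Families of fuel use were led by muscle members in some cases and by general members in others. Cpt1b, the muscle form of the enzyme that admits fatty acids to mitochondria, ranged from 13.35 to 13.83, and the liver form Cpt1a from 10.18 to 10.97. Slc2a4, the insulin-responsive glucose transporter GLUT4, ranged from 12.27 to 13.03, and the general transporter Slc2a1 from 9.06 to 9.61. These ranges do not overlap within either family. Hexokinases and enolases were led by general forms: Hk1 stood at 11.15 ± 0.45 and the muscle form Hk2 at 9.13 ± 0.42, and Eno1 stood at 13.49 ± 0.17 and the muscle form Eno3 at 12.96 ± 0.36. With the mean of all probe sets Hk2 was above Hk1. Ckmt2 (14.91 ± 0.19) and Ckm (14.73 ± 0.22), the mitochondrial and muscle creatine kinases, were both in the brightest 1%.

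In 2 metabolic families the leading member was not the higher on all arrays. Pdk2, a kinase that restrains glucose oxidation, was above Pdk1 on 5 of 7 arrays, with values of 12.40 to 13.44 against 12.26 to 12.66. Pgam2, the muscle phosphoglycerate mutase, was above Pgam1 on 6 of 7. The PPAR and uncoupling protein families had a leader on all 7 arrays. Of the PPAR receptors, which switch on genes of fatty acid use, Ppard stood at 9.69 ± 0.23 and Pparg at 7.83 ± 0.51. Ppara had low signal on its only probe set (6.33 ± 0.61), which says nothing of how active the receptor was. Ucp2 stood at 11.82 ± 0.56, Ucp3 at 8.68 ± 0.42 and the brown fat protein Ucp1 at 6.03 ± 0.33.

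The hormones and receptors of the heart gave a mixed picture. The natriuretic peptide genes Nppa and Nppb, which the ventricle makes under load, both lay in the brightest 1%. Nppa read 13.90, 14.05, 13.46, 14.32, 14.65, 13.26 and 13.80 in control replicates 1 to 7, and Nppb read 14.28, 14.08, 13.65, 13.84, 13.94, 13.33 and 13.68. Neither was above the other throughout: Nppa was the higher on 3 of 7 arrays, and without control replicate 5 the mean of Nppb was the higher. The alpha-1 receptor Adra1b stood at 12.19 ± 0.25 and the beta-1 receptor Adrb1 at 7.73 ± 0.23, which 44.8% of probe sets exceeded.

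Markers of the other cell types of the heart were measured at lower signal. All 10 measured endothelial, 11 of 11 fibroblast, 11 of 11 smooth muscle and pericyte and 11 of 11 macrophage markers were above low signal. For reference, 10133 of all 14217 genes were. Dcn, a matrix proteoglycan of fibroblasts, was the brightest of those named here at 14.11 ± 0.21, and the endothelial Pecam1 stood at 10.31 ± 0.19. Of 8 measured T and B cell markers 2 were above low signal, and of 13 markers of other organs 2 were, among them Ttr, the carrier of thyroid hormone, at 10.50 ± 0.34. Of 10 measured fat cell markers 5 were above low signal, with Fabp4 in the brightest 1%. The fat cell genes Adipoq (6.87 ± 0.51), Plin1 (6.93 ± 0.54) and Cidec (5.90 ± 0.09) had low signal in the mean. Fabp4, which capillary endothelium also makes, stood at 13.55 ± 0.18.

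The spread between animals was widest at low signal and fell over most of the range. The median SD was 0.48 for probe sets with a mean between 6 and 7, 0.25 between 9 and 10, and 0.16 between 13 and 14. It was 0.17 under 6, next to the floor, and turned up again to 0.19 at 14 or above. Among genes above low signal the smallest spread was that of Fnta: this gene, a subunit of the enzyme that attaches farnesyl groups, read 10.49 to 10.57 on all 7 arrays (SD 0.03). Among genes above 12, the ribosomal protein Rplp0 (13.65 ± 0.05) and the actin-binding peptide Tmsb4x (14.31 ± 0.06) were among the 10 steadiest. These genes and the most variable ones below were picked by their spread, so their SDs are a description.

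**Figure D2:**
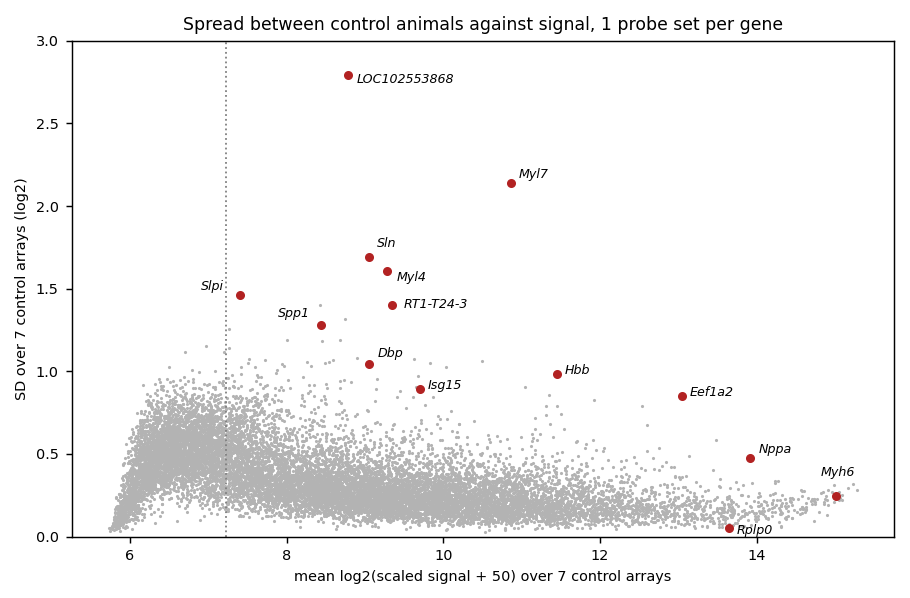
Spread between the 7 control animals against mean signal. Each grey point is 1 of 14217 genes by its brightest probe set, the horizontal axis is mean log2(scaled signal + 50), the vertical axis the SD in log2 units and the dotted line the low-signal limit; LOC102553868 (SD 2.79) and Myl7 (SD 2.14) stand above all other genes.

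Few probe sets varied more between animals than others of like signal. A fit of the variances against mean signal with limma's robust variance prior called 3 of 31042 probe sets (0.00966%) after Benjamini-Hochberg adjustment, and 1295 (4.17%) had an unadjusted p under 0.05. The 3 were Myl7, the transcript LOC102553868 and a probe set listed with several class I MHC genes. Without control replicate 5 no probe set was called, without control replicate 6 there was 1, and without both there were 0. Without control replicate 1 or 4 there were 5.

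Myl7 encodes the regulatory light chain of atrial myosin, which the adult ventricle hardly uses. It read 12.27, 8.44, 9.05, 11.35, 14.30, 8.96 and 11.66 in control replicates 1 to 7, a 57.9-fold span on this scale (limma adjusted p = 0.00527). Control replicate 5 was the highest, 1, 4 and 7 were intermediate, and 2, 3 and 6 were low. Sln, sarcolipin, the atrial regulator of the calcium pump, read 9.77, 7.21, 8.0, 9.0, 11.72, 7.28 and 10.41. Myl4, the atrial essential light chain, read 10.13, 7.53, 7.10, 9.66, 11.74, 8.79 and 10.02.

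The same 3 animals were the lowest and the same animal was the highest in each of these genes. Sln and Myl4 did not pass as hypervariable over all arrays (adjusted p = 0.0903 for both, limma) and passed when variances were taken within batches (adjusted p = 0.0351 for both). Myl7 correlated with Sln by Pearson's r = 0.968 (exact permutation p = 0.00179, adjusted over 30 relations 0.0238, n = 7) and Spearman's rho of 0.964 (exact p = 0.00278, adjusted 0.0417). With Myl4 it correlated by r = 0.948 (exact permutation p = 0.00238, adjusted 0.0238) and rho = 0.893 (exact p = 0.0123, adjusted 0.0738). The pairs tested here and below were chosen with earlier results of these data known, so their p-values are no independent test.

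Without control replicates 2 and 5, the farthest from the median of Myl7, these r were 0.913 and 0.866. With batch means removed they were 0.969 and 0.945. Mybphl, another atrial gene, read 8.21, 6.24, 6.41, 7.50, 9.51, 6.0 and 7.04, with control replicate 5 again the highest and 2, 3 and 6 the lowest.

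The other atrial markers moved less. Nppa was highest in control replicate 5 too, but its correlation with Myl7 did not pass (r = 0.709, exact permutation p = 0.0726, adjusted 0.136, n = 7), and rho was 0.464 (exact p = 0.302, adjusted 0.454). The potassium channel gene Kcnj3 read 8.06 to 8.56 and was at 8.08 in control replicate 5. Summed over 9 of 10 listed atrial markers, scaled signal was 77482 in control replicate 5 and 30577 to 44372 in the others. The labels do not say how much atrial tissue, if any, a sample held, and its part in these values was not tested.

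LOC102553868, annotated as a long non-coding RNA, had the widest spread of all genes described. It read 6.55, 6.43, 6.56, 6.65, 11.68, 11.88 and 11.77 in control replicates 1 to 7 (limma adjusted p = 0.00527). The first 4 animals had low signal, and the nearest members of the high and low animals lay 5.03 log2 units apart. The group means differed by 5.23, which the added 50 makes an understatement, with a range of 0.22 in the low and 0.20 in the high animals. These groups do not follow the inferred batches, since control replicates 3 and 7 have batch partners on the other side.

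In the RefSeq gene order of assembly GRCr8 this transcript lies between Myh9, a non-muscle myosin heavy chain, and Txn2, the mitochondrial thioredoxin. Txn2 read 12.44, 12.20, 12.54, 12.47, 12.02, 11.93 and 12.11. Its 3 lowest animals are the 3 with high LOC102553868, but the gap between the groups, 12.11 to 12.20, is small. Myh9 read 10.87 to 11.38 and Eif3d, a translation initiation factor beyond Txn2, read 11.28 to 11.44, with the groups overlapping in both. Apol3l1, on the far side of Myh9, read 9.19 to 9.48 in the 3 animals with high LOC102553868 and 8.96 to 9.18 in the other 4, with a gap between the groups smaller still than that of Txn2.

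**Figure D3:**
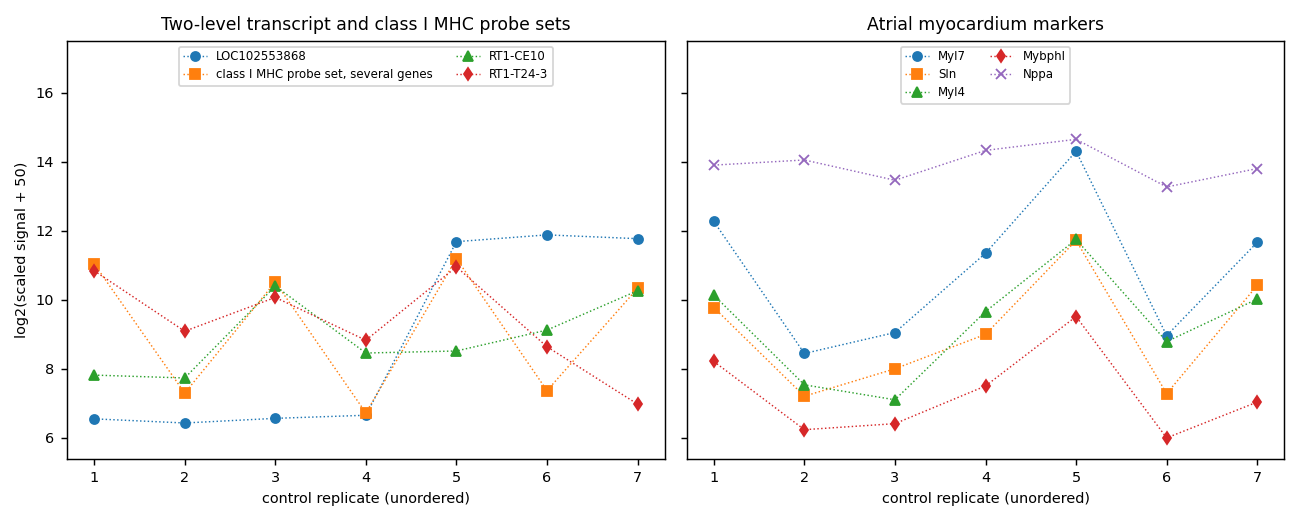
Genes whose signal split or spread widely between the 7 control animals. The vertical axes are log2(scaled signal + 50), the horizontal axes the replicate number, and dotted lines only join values of 1 probe set; LOC102553868 sits at 6.43 to 6.65 in 4 animals and at 11.68 to 11.88 in 3, and Myl7, Sln, Myl4 and Mybphl are all highest in control replicate 5.

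Genes of the rat MHC, the RT1 region that presents peptides to T cells and differs much in sequence between animals, split the animals in other ways. The called class I probe set read 11.04, 7.29, 10.51, 6.72, 11.19, 7.37 and 10.33 (limma adjusted p = 0.0313), high in control replicates 1, 3, 5 and 7 and low in 2, 4 and 6. RT1-T24-3 read 10.84, 9.09, 10.07, 8.83, 10.95, 8.64 and 6.98. It split the animals in the same way except in control replicate 7, which was the lowest. RT1-CE10 read 7.82, 7.73, 10.40, 8.46, 8.52, 9.12 and 10.26, and was highest in control replicates 3 and 7. Class I genes share long stretches of sequence, so the gene behind each of these signals is uncertain.

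In all, 18 probe sets (0.058%) fell into a high and a low level with a gap of at least 1.5 log2 units that was more than 2 times the wider side. In 8 of them control replicates 5 and 6 were set apart from the rest, and in 4 it was control replicates 1 and 2, the animals of batch A. One of these 4 belongs to App, the amyloid precursor gene. It read 8.44 and 8.50 in control replicates 1 and 2 and 10.29 to 10.51 in the other 5, while another App probe set read 13.36 to 13.46 in those animals and 12.83 to 13.62 in the rest. The rule for these splits was chosen after the values were seen.

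In Dbp, Per1, Per2 and Bmal1, genes of the circadian clock, 1 animal stood apart from the other 6. The clock is a feedback loop in nearly every cell, in which Bmal1 and its partners Clock and Npas2 switch on the Per, Cry and Nr1d genes, whose proteins then shut them off. Dbp and Tef are output factors under the same switch. Their RNA rises and falls over the day, Bmal1 in the opposite phase to Dbp.

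The promoter window around the start site is shown for a member of each arm because binding sites there define the loop. Sequences are those of RefSeq on assembly GRCr8, and capitals mark the E-box CACGTG bound by Bmal1 and Clock, the D-box TTATGTAA bound by Dbp and Tef, and the receptor motif AGGTCA within elements bound by the Nr1d receptors. One listed window of Nr1d1 (chr10:84229405-84229704, minus strand) holds the E-box, that of Per2 (chr9:99496944-99497243, minus strand) the D-box, and that of Bmal1 (chr1:176766078-176766377, plus strand) the receptor motif.
Nr1d1: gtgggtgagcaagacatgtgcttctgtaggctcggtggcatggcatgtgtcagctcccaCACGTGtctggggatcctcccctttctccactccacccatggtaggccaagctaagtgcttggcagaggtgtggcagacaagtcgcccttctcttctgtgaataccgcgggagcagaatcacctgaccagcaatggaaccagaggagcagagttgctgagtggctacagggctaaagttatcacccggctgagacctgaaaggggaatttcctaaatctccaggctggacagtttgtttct
Per2: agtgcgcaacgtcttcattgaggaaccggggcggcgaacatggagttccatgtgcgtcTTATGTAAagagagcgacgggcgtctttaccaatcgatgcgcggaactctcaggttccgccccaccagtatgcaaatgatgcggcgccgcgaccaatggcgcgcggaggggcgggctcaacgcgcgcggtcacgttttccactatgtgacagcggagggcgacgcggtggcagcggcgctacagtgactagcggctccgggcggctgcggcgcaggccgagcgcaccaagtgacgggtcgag
Bmal1: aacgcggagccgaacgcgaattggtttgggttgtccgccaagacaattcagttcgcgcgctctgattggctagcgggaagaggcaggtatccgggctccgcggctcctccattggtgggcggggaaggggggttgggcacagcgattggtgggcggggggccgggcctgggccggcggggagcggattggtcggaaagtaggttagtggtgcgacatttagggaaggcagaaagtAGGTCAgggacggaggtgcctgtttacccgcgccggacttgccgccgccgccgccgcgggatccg

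Both strands were searched. Of 33469 promoter windows in the table, 6.42% held CACGTG, 0.893% held TTATGTAA and 16.2% held AGGTCA. Of 14 clock genes with a window, 3 held the E-box (Tef, Nr1d1 and Bhlhe41), 1 the D-box (Per2) and 3 the receptor motif (Nr1d2, Usp2 and Bmal1). These counts are per gene and the shares per window, and a gene such as Nr1d1 can have more than 1 window, so they are not compared. The windows printed above were picked because they hold a motif. A match is a description of the letters, and the absence of one says nothing of the factor.

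Dbp read 8.87, 7.99, 11.23, 8.65, 9.12, 8.36 and 9.18 in control replicates 1 to 7, and Bmal1 read 9.09, 9.43, 7.76, 9.50, 9.0, 9.72 and 9.09. Control replicate 3 had the highest Dbp and the lowest Bmal1 of the 7 animals. Per2 read 8.83, 8.23, 10.25, 8.17, 7.83, 7.82 and 8.24. Nr1d1 read 10.89 in control replicate 3, 10.80 in control replicate 5 and 9.24 to 10.46 in the others. Control replicate 3 was again the highest in both, though control replicate 5 came close to it in Nr1d1.

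Per1 (9.87), Nr1d2 (12.00), Tef (10.59), Usp2 (11.63) and Bhlhe41 (11.23) were also highest in control replicate 3. Npas2 was lowest there, at 7.91. Over 10 clock output and repressor genes above low signal the mean correlation between members was 0.527, and 0.623 without control replicates 5 and 6, against 0.0015 and 0.0031 for all genes. After quantile normalisation it was 0.536.

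**Figure D4:**
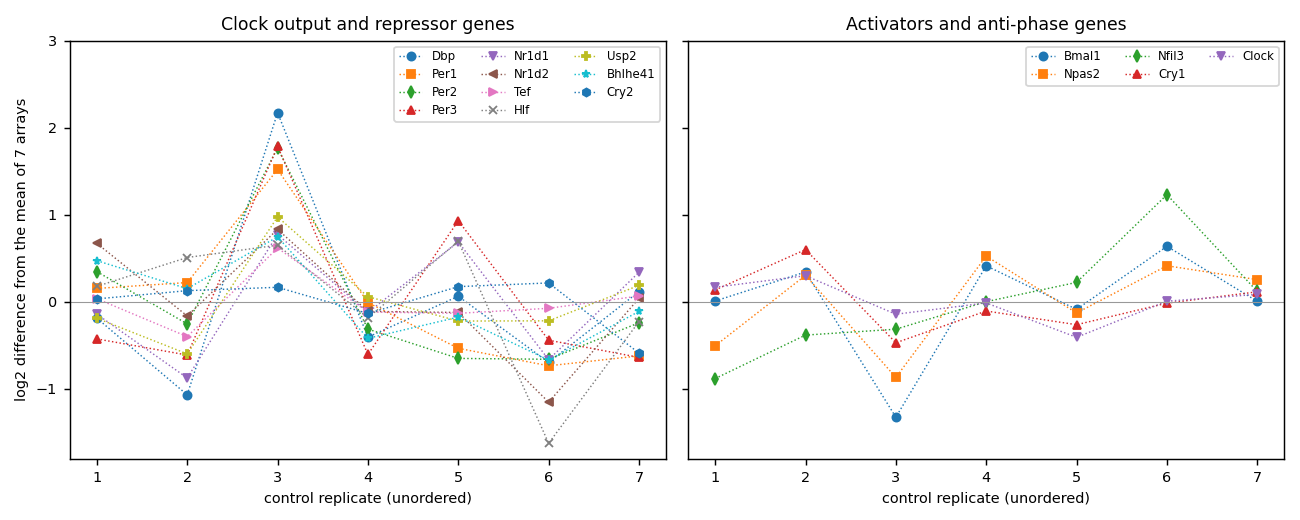
Clock genes in the 7 control animals. The vertical axes give the log2 difference of each gene from its own mean over the 7 arrays, the horizontal axes the replicate number, and dotted lines only join values of 1 gene; control replicate 3 is high for Dbp, Per1, Per2 and Nr1d1 and low for Bmal1 and Npas2.

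Dbp and Bmal1 correlated by r = -0.962 (exact permutation p = 0.00615, adjusted 0.0308, n = 7), with rho of -0.857 (exact p = 0.0238, adjusted 0.102). Without control replicates 2 and 3, the farthest from the median of Dbp, r was -0.946, and with batch means removed it was -0.986. Without control replicate 3 alone it was -0.766 (adjusted exact p = 0.235), the weakest r with 1 array left out, and the strongest was -0.986. The relation did not pass when any 1 of the 7 arrays was left out. Leaving out an array also raises the smallest p that the permutations allow, so not passing there says little of the relation. With scaling to the array median the r of Dbp and Bmal1 was -0.913 and did not pass (adjusted exact p = 0.0558). Dbp and Nr1d1 correlated by r = 0.811 (exact permutation p = 0.00536, adjusted 0.0308), with rho of 0.929 (exact p = 0.00675, adjusted 0.0506) and r = 0.925 without the same 2 animals. Dbp and Per2 (r = 0.856, exact permutation p = 0.0653, adjusted 0.131; rho 0.571, adjusted exact p = 0.333) did not pass, and r fell to 0.208 without those 2. It was 0.095 without control replicate 3 alone and 0.901 without control replicate 2 alone, so that relation rests on control replicate 3.

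Slc2a4 and Hk2, which carry glucose into muscle and trap it as glucose 6-phosphate, rose and fell together across the animals. Slc2a4 read 12.38, 12.27, 13.03, 12.76, 12.61, 12.90 and 12.78, and Hk2 read 8.82, 8.41, 9.60, 9.23, 8.99, 9.34 and 9.51. Control replicates 1 and 2 were the lowest in both and control replicate 3 the highest in both. Pearson's r was 0.952 (exact permutation p = 0.000992, adjusted 0.0238, n = 7) and rho was 0.964 (exact p = 0.00278, adjusted 0.0417). By Pearson's r the pair did not pass when any 1 of control replicates 1 to 5 was left out. With 1 array left out r was 0.926 to 0.977, and fewer arrays allow fewer permutations.

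Without control replicates 1 and 2, r was 0.852, and with batch means removed 0.889. Those animals are again the ones with the high beta-actin ratio, whose part in this relation was not tested. With the most variable probe set of each gene in place of the brightest, r was 0.797 and did not pass (adjusted exact p = 0.0801). As background, 0.181% of all pairs among 10133 genes had r of at least 0.95.

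**Figure D5:**
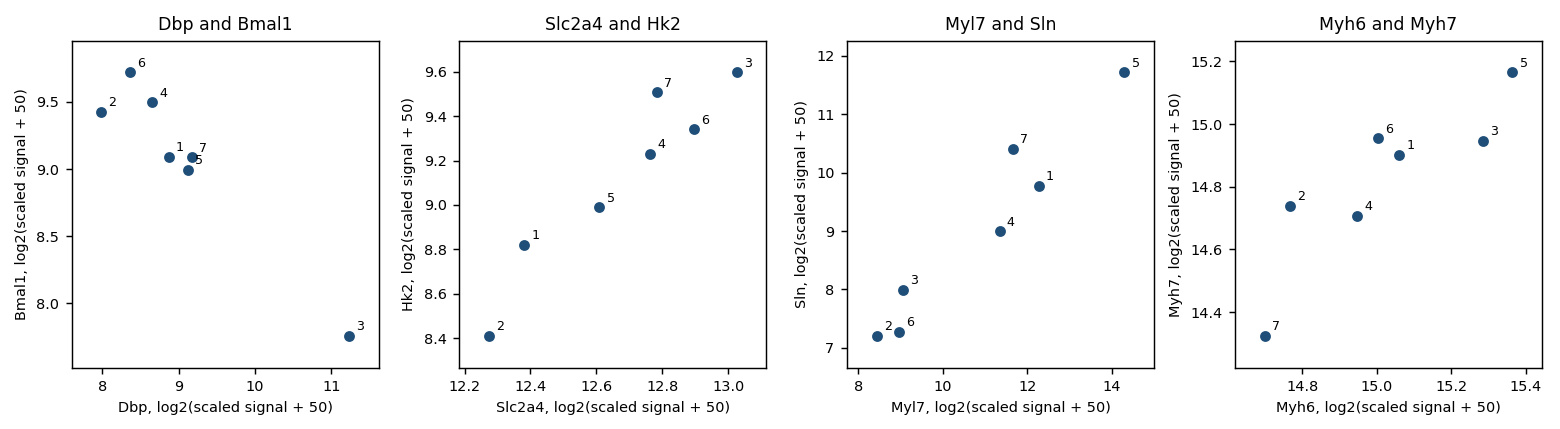
Pairs of genes across the 7 control animals, with each point labelled by its replicate number. All axes are log2(scaled signal + 50); Dbp falls as Bmal1 rises with control replicate 3 far from the rest, Slc2a4 and Hk2 lie near a line, Myl7 and Sln are highest in control replicate 5, and Myh6 and Myh7 differ by under 1 log2 unit across animals.

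Of 30 relations tested, 9 passed an adjusted p of 0.05 by Pearson's r and 2 by Spearman's rho. All were between genes except that of the first principal component of the arrays with the beta-actin ratio, which did not pass (r = -0.510, exact permutation p = 0.223, adjusted 0.334; rho -0.750, adjusted exact p = 0.166). The smallest p that 7 animals allow here is 0.000198. As the pairs were chosen with earlier results of these data known, passing is no independent support. After quantile normalisation 5 of the 9 passed: Dbp with Nr1d1, Dbp with Bmal1, Myl7 with Myl4, Myl7 with Sln, and Slc2a4 with Hk2. When 1 array was left out, 0 passed without control replicate 2, 4 or 5, 1 without control replicate 1 or 3, and 5 without control replicate 6 or 7. Fewer arrays allow fewer permutations and so a larger smallest p, and a lost pass need not mean a weaker r. Beside those above, C1qa and C1qb, chains of complement C1q made by macrophages, correlated by r = 0.835 (exact permutation p = 0.0139, adjusted 0.0463, n = 7), with rho of 0.786 (adjusted exact p = 0.144), r = 0.70 without the 2 farthest animals and r = 0.928 with batch means removed. The immediate early genes Fos and Nr4a1 correlated by r = 0.927 (exact permutation p = 0.00754, adjusted 0.0323), with rho of 0.750 (adjusted exact p = 0.166) and r = 0.873 with batch means removed. Both were lowest in control replicates 3 and 6, and without these r was 0.456, so the relation rests on them.

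Cd74, the invariant chain of class II MHC, and RT1-Da, a class II chain, correlated negatively (r = -0.910, exact permutation p = 0.0117, adjusted 0.0439; rho -0.821, adjusted exact p = 0.128), and r was -0.892 with batch means removed. RT1-Da read 12.35 in control replicate 2 and 10.67 to 11.45 elsewhere, while Cd74 read 13.18 there and 13.33 to 13.52 elsewhere. Without control replicates 2 and 5 r was -0.359. It was -0.672 without control replicate 2 alone and -0.907 without control replicate 5 alone, so this relation rests more on control replicate 2. With scaling to the array median the r of Cd74 and RT1-Da was -0.411 (adjusted exact p = 0.509) and after quantile normalisation -0.713 (adjusted exact p = 0.174), and neither passed.

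Myh6 and Myh7 rose and fell together (r = 0.869, exact permutation p = 0.00516, adjusted 0.0308, n = 7; rho 0.857, adjusted exact p = 0.102). Without control replicates 5 and 7 r was 0.729, and with batch means removed 0.779. After quantile normalisation r was 0.171 and did not pass (adjusted exact p = 0.779). The same held for the brightest genes as a group: the mean correlation between the 11 cardiomyocyte markers was 0.846 with scaled signal and -0.0064 after quantile normalisation, and that among 33 genes of oxidative phosphorylation was 0.450 and 0.0004.

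Genes of the interferon response varied together under either scaling. The mean correlation between 16 members was 0.552, and 0.565 after quantile normalisation. Irf7, a factor that drives the response, read 11.13, 11.61, 11.21, 11.52, 11.33, 10.92 and 10.18. Isg15, a ubiquitin-like product of it, read 10.79, 10.49, 9.22, 10.13, 9.72, 9.45 and 8.12. Control replicate 7 was the lowest in both, and also in Rtp4 (8.56), Mx1 (7.87), Usp18 (9.44) and Ifi27 (12.36).

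The named pair of Irf7 and Isg15 did not pass (r = 0.804, exact permutation p = 0.0329, adjusted 0.0760, n = 7; rho 0.571, adjusted exact p = 0.333), and r was 0.196 without control replicates 2 and 7. Summed over 16 members, scaled signal ran from 12034 in control replicate 7 to 31242 in control replicate 2. Of the 11 macrophage markers the summed signal was highest in control replicate 2 as well, at 16211, against 8132 to 13170 in the others, with a mean correlation of 0.576 between markers.

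Some further genes were highest in control replicate 2 and are named because of it, chosen after their values were seen. Spp1, the matrix protein osteopontin, read 6.74, 10.82, 7.68, 8.67, 8.77, 7.75 and 8.62. Timp1, an inhibitor of matrix proteases, read 11.32 in control replicate 2 and 8.75 to 9.71 in the others, and Cxcl13, a chemokine for B cells, read 10.50 against 7.80 to 8.99. Ccl2, which draws in monocytes, and Postn, a matrix protein of activated fibroblasts, were highest there too, at 10.58 and 10.66. Of the fibrillar collagens, Col3a1 was also highest in control replicate 2, at 13.51, with control replicate 5 next at 13.37, while Col1a1 was highest in control replicate 5, at 11.86. The summed signal of 11 fibroblast markers was highest in control replicate 2, at 54369, against 34043 to 51304 in the others.

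The globin genes spread widely between the animals, although the hearts had been flushed. Hbb, a beta globin, read 12.90, 12.03, 11.19, 9.93, 10.71, 12.10 and 11.31. A probe set listed with several alpha globin genes read 13.92, 13.13, 13.11, 11.53, 12.56, 13.49 and 12.82. Control replicate 1 was the highest and control replicate 4 the lowest in both. The mean correlation between the 3 of 6 red cell genes above low signal was 0.0895. It was 0.478 with batch means removed and -0.122 without control replicates 5 and 6. Hbb with Alas2, the first enzyme of red cell heme synthesis, did not pass (r = 0.101, exact permutation p = 0.858, adjusted 0.858, n = 7; rho 0.143, adjusted exact p = 0.810). With batch means removed the r of Hbb and Alas2 was 0.9504, and without control replicates 5 and 6 it was -0.125. The batches are inferred, and the relation with batch means removed was not tested.

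Bright genes with a wide spread included Eef1a2, the muscle form of an elongation factor, which read 12.09, 11.86, 13.91, 12.91, 14.02, 13.58 and 12.98. Tle5, a transcriptional corepressor, read 11.58 and 11.42 in control replicates 1 and 2 and 12.46 to 13.44 in the others. Both were lowest in control replicates 1 and 2. The group Epn1, Scaf1, Setd1b, Phospho1, Lrp5, Ptms, Prrc2a, Mllt1 and Raver1, formed after the fact from the 100 most variable genes, was likewise low in these 2 animals, by 1.11 and 1.66 log2 units on average below the mean. These are the animals of batch A.

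Other groups formed in this way were set by control replicates 5 and 6. Plcb3, Rph3al, Srxn1 and 7 further genes were low in control replicate 5, by 1.87 on average, and Fibin, Itgb2, Ptafr and 6 more were low in control replicate 6, by 1.97. Without those 2 arrays the mean correlation inside these groups was 0.459 and 0.382, from 0.820 and 0.893. For the group of Myl7, Sln, Myl4, Mybphl and Car3 it was 0.897 without them and 0.917 with them. Car3 is not among the listed atrial markers.

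Probe sets of the same gene often did not vary alike. Over 2611 genes with at least 2 probe sets above low signal, the median correlation between probe sets across the 7 animals was 0.243. Among the tenth of these genes with the largest spread it was 0.327. App and Myh6 above are genes whose probe sets ordered the animals differently.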

How the data were processed

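The deposited values are linear-scale intensities of Affymetrix Rat Genome 230 2.0 probe sets. Tools listed per the submitters' processing notes are MAS5, RMA, affy and limma, with neither role nor version. A genome build was not given in the sources used here, and how the deposited intensity was scaled or centred is unknown. Medians of the 7 control arrays were 47.1, 62.8, 19.8, 59.3, 25.5, 82.4 and 78.3.

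Each array was scaled to a trimmed mean of 500 (2% trimmed at each end, factors 1.63 to 6.63), 50 was added and log2 taken. Of 31042 probe sets, 20826 had 1 gene symbol, 436 several and 9780 none, and 14217 genes were named. Looked up by gene ID in RefSeq's GRCr8 table, 20758 matched and 0 changed.

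Hypervariability was tested with limma 3.58.1 in R 4.3.3 (fitFDistRobustly with mean signal as covariate, prior df 8.42, upper tail), batch with lmFit and eBayes, and pairs by exact two-sided permutation of 7 arrays, all with Benjamini-Hochberg adjustment at 0.05. Lists and families were described without tests. The steps were tested on simulated data: 95 of 100 probe sets with a 4-fold SD and 21 of 100 with a doubled SD were called among 31042, with 10 unchanged ones. For batch, 90 of 100 shifted by 2 log2 units were called and 0 of 100 shifted by 1. The simulated noise was normal, with the SD fitted for each level of signal. It held no further scatter of variances between probe sets and no atypical arrays, so these shares do not carry over to the real data. Batches were read from control probe sets by the largest gap. Genes were named as the 25 brightest, the called hypervariable genes, and members of listed families, markers and pairs, with others said to be chosen after the fact. The members, lists and pairs were chosen with earlier results of these data known. Per the labels, each array is a separate animal. No detection calls were used, and precision is limited by the number of arrays.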

Additional observations from a re-analysis of the deposited data

Results flagged for a closer look

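Of 116 values checked for a single animal far from the others, 7 (6.03%) stood out, where chance flags about 1 in 20 groups, so the share is close to what chance gives. Gria4 and Fibin were checked because they are among the 20 genes with the widest spread. For 4 clock genes the animal was control replicate 3. Dbp was high there at 11.23, with the nearest animal at 9.18. Per2 was high at 10.25, with the nearest at 8.83. Per1 was high at 9.87, with the nearest at 8.57. Bmal1 was low at 7.76, with the nearest at 9.0. Gria4, a glutamate receptor subunit, was high in control replicate 5 at 9.45, with the nearest animal at 7.47. Fibin, a secreted protein gene, was low in control replicate 6 at 6.18, with the nearest at 8.45. The 3-prime over 5-prime ratio of the Gapdh control probe sets was highest in control replicate 6 at 0.405 on the log2 scale, with the nearest array at 0.293.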

How the results depend on the processing

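The count of hypervariable probe sets (3) was 6 with an offset of 16, 6 with scaling to the array median, 5 with batch as a block, 0 with a variance prior that was not robust and 0 without control replicates 5 and 6 together, an alternative chosen after seeing the data. It ranged from 0 to 5 when each array was left out (0 without control replicate 5). Batch-associated probe sets (0) were 56 with an offset of 200 and 42 among probe sets with a scaled mean of at least 100. The 9 correlated pairs were 5 after quantile normalisation and 0 to 5 when each array was left out, and no r changed sign among the 9. Leaving out an array also raised the smallest p that the permutations allow. The leading isoform was the same in 36 to 41 of 41 families: with the mean of all probe sets it changed for myosin light chains, tropomyosins, hexokinases, pyruvate dehydrogenase kinases and integrins. Of the 25 brightest genes 24 or 25 were the same in every setting tried. Quantile normalisation moved the median of control replicates 5 and 6 by -0.21 and -0.17, and of the others by 0.05 to 0.10. No paired analysis was possible because only 1 group was described. Differences of genes near the floor of 5.64 are understated.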
